A study of Mus musculus with 12 samples.

Results

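The ventricles of wild-type mice infused with angiotensin II were compared with those of mice given saline, across all genes. The comparison takes 8 of the study's 12 RNA sequencing libraries, 4 labelled AngII and 4 labelled saline, as the treatment label of each sample places them. The saline group received saline with vehicle. The AngII group received angiotensin II with vehicle, the peptide being delivered by an osmotic minipump placed under the skin. The remaining 4 libraries come from mice that also received Forsythoside I, at 50 mg/kg every other day until day 14, and they enter no result here except where named. The sources used here do not give strain, sex, age, the angiotensin II dose or the day of tissue collection. The labels speak of 4 mice a group but tie no library to a named animal, so the p-values measure the spread between these libraries.

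Angiotensin II acts on vessels, kidney, heart muscle cells and fibroblasts, mainly through a G protein-coupled receptor, and raises blood pressure. In the ventricle it is known for hypertrophy and fibrosis, with a return of fetal muscle genes. The adult ventricle burns mostly fatty acids, and its rhythm depends on a fixed set of ion channels, so the genes of fuel use and excitation are described here beside those of signalling, transcription and muscle structure.

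The 8 libraries held 68874852 to 80624227 counts each, and 34% to 38.8% of these fell on mitochondrially encoded genes. Levels are given as CPM, counts scaled to a common library size with edgeR's TMM factors. Summed marker levels are the exception, being CPM of library totals without these factors. No level is divided by gene length, so levels do not rank genes against each other. A floor of 3 counts equals 0.0372 to 0.0436 CPM, which covers counting error only. The total, the mitochondrial share, the share of the 50 most abundant genes and the number of genes with a count did not differ detectably between the groups (exact two-sided permutation p = 0.314 to 0.886, where 4 against 4 cannot go below 0.0286). The genes that mark this model followed the labels. Nppa, the atrial natriuretic peptide gene, went from 113 ± 17.3 to 305 ± 27.7 CPM (mean ± SD over the 4 libraries of each group), Nppb, its B-type relative, from 103 ± 26.7 to 284 ± 83.3 CPM and Col1a1, a type I collagen chain, from 40.5 ± 5.36 to 80 ± 6.02 CPM. Exons of another gene on the opposite strand overlap 61.5% of Nppa, and the sources used here give no strand setting for the counts. Of 35 tested collagens 14 rose and 0 fell.

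More genes were higher than lower in AngII, and most called changes were small. Of 16754 tested genes, 358 were higher and 208 lower at an adjusted p under 0.05 by edgeR's quasi-likelihood test, which is 3.38% of tested genes, 2.14% higher and 1.24% lower. These shares are the background for every list below. For counts at an unadjusted p under 0.05 the background is 3278 of the 16754 genes, 1775 higher and 1503 lower. For counts of DESeq2 calls it is 843 higher and 593 lower among the same genes. The median size of a called change was 0.71 on the log2 scale among the higher genes and 0.513 among the lower. Among higher genes 77 passed 1 log2 unit and 14 passed 2, against 20 and 0 among lower genes. Without regard to a test, AngII ran higher with no overlap of the groups for 1263 genes, 7.54% of those tested, and lower with no overlap for 1058 genes, or 6.31%. Of the called genes, 345 of the higher and 194 of the lower were protein-coding. The groups did not overlap for 354 of the 358 higher and for all 208 lower genes. For a called gene, groups that lie apart are therefore a description and add nothing to the call. In whole ventricle, fewer cells of a type and less RNA per cell cannot be told apart, and this holds for each result that follows.

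**Figure D1:**
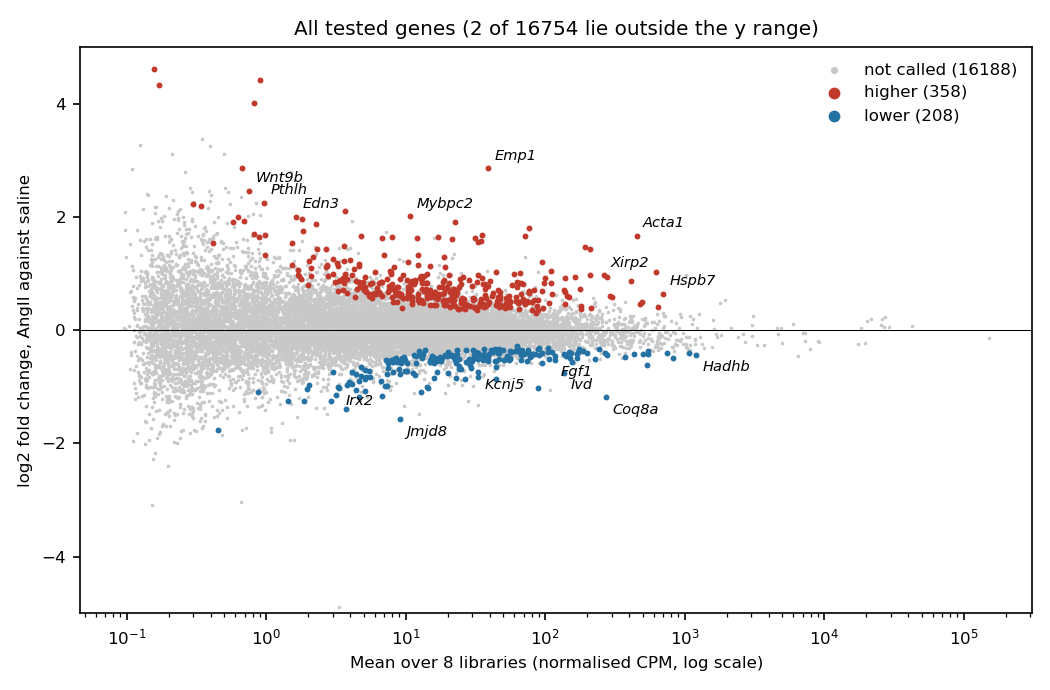
Each point is 1 of 16754 tested genes, with its mean level over the 8 libraries (normalised CPM, log scale) against its log2 fold change, AngII against saline; 2 genes lie outside the y range. The 358 higher genes (red) reach further from 0 than the 208 lower genes (blue), which mostly lie between 0 and -1 and include highly expressed metabolic genes such as Hadhb.

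The counts of called genes depended on single libraries and on the scaling. Dropping saline 1 gave 125 higher and 48 lower genes, dropping saline 2 gave 257 and 149, dropping saline 3 gave 278 and 106, and dropping saline 4 gave 132 and 44. Of the AngII libraries, dropping AngII 1 gave 254 and 138, AngII 2 gave 110 and 32, AngII 3 gave 87 and 30, and AngII 4 gave 74 and 27. Of the called genes, 68 higher and 18 lower kept their call in all 8 of these fits, and 41 and 40 lost it in all 8. Every one kept its sign in all 8. Where groups do not overlap, as for nearly all called genes, leaving out a library can hardly turn the sign. The kept signs therefore add no support to these calls. With library totals as the only scaling the split was 293 higher and 99 lower, so the lower genes below are the more sensitive to scaling. Where a gene was no longer called with a library left out, the number of such fits out of 8 is given, with the libraries where they were 4 or fewer and with the range of its log2 fold change over the 8 fits.

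Markers of several cell types moved with the groups. Marker sums, here and below, were scaled by library totals alone and so are not on the scale of the gene levels. Fibroblast markers, 14 tested, included 7 that rose, 0 that fell and a median log2 fold change of 0.385, and their summed level was 1919 to 2530 CPM in saline and 2576 to 2942 CPM in AngII. Macrophage markers, 18 tested, included 7 that rose and a median of 0.607, with sums of 386 to 512 against 616 to 716 CPM. Cardiomyocyte markers, 15 tested, included 0 past the threshold by edgeR or DESeq2 (2 had an unadjusted p under 0.05) and a median of -0.161, with sums of 47010 to 58000 against 41950 to 47120 CPM. Mesothelial markers, 7 tested, included 2 that rose, with sums of 7.82 to 10.7 against 15.1 to 18.5 CPM. Of 13 endothelial markers 0 passed by edgeR (6 had an unadjusted p under 0.05, and DESeq2 called 1), with a median of 0.316 and overlapping sums. Hepatocyte markers summed to 27.7 to 38.9 CPM in saline and 37.4 to 108.6 CPM in AngII, highest in AngII 3, with 0 of 8 tested past the threshold by edgeR (3 had an unadjusted p under 0.05, and DESeq2 called 2). The part of these cell types in the gene results was not tested.

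**Figure D2:**
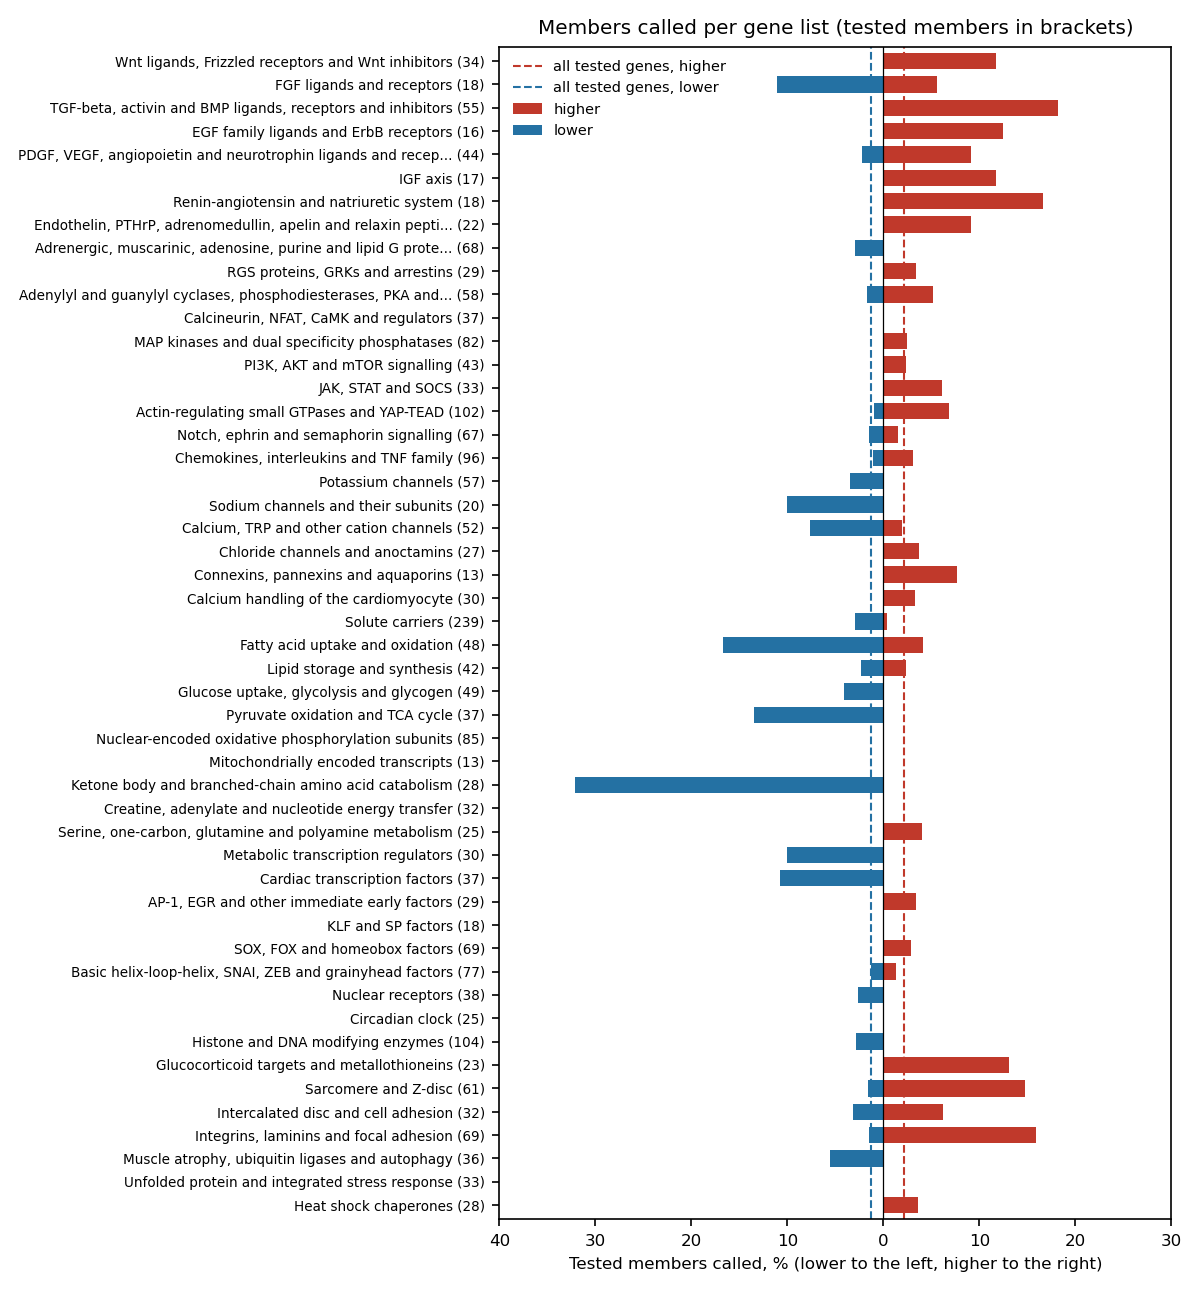
Bars give the share of each list's tested members (number in brackets) that were called higher (red, to the right) or lower (blue, to the left) in AngII; dashed lines mark the shares over all tested genes, 2.14% and 1.24%. Matrix-binding and growth factor lists extend to the right, and fuel oxidation, sodium channel and cardiac transcription factor lists to the left.

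Secreted growth factors and their inhibitors held many of the higher genes. Of 55 tested TGF-beta, activin and BMP genes, 10 rose and 0 fell, against 2.14% and 1.24% of all genes, with a list median of 0.146 where that of all tested genes was 0.003. Ltbp2, a microfibril protein that holds latent TGF-beta (chromosome 12, 84783212 to 84876532), stood at 1.62, 0.958, 1.49 and 1.49 CPM in the saline libraries and 6.47, 6.47, 5.61 and 5.46 CPM in the AngII libraries, which is 2.11 ± 0.19 on the log2 scale (± SE, here and below, with an edgeR adjusted p of 0.00148). Inhba, the activin beta A subunit (chromosome 13, 16011851 to 16031621), stood at 0.545, 0.783, 0.751 and 0.843 CPM in the saline libraries and 2.27, 2.48, 2.86 and 3.82 CPM in the AngII libraries, or 1.97 ± 0.24 (edgeR adjusted p = 0.00591). For both genes the lowest AngII library was well above the highest saline library. The follistatin-like genes rose too, Fstl3, an activin antagonist, by 1.48 ± 0.18 and Fstl1, a secreted glycoprotein, by 1.04 ± 0.13 on the log2 scale. Exons on the opposite strand overlap 47.3% of Fstl3. The other 6 members that rose were Tgfb3, Gdf6, Tgfb1, Bambi, Ltbp3 and Bmp1. The count of higher members was 5 to 8 over the fits with 1 library left out. The calls of Ltbp2, Inhba, Fstl3, Fstl1 and Tgfb3 were kept in all 8 fits that left out 1 library. Gdf6 was no longer called in 4 fits (saline 1 or AngII 2 or AngII 3 or AngII 4 left out, 1.54 to 1.85), Tgfb1 in 6 (0.56 to 0.74) and Bambi in 6 (0.56 to 0.71). Ltbp3 was no longer called in 7 fits (0.38 to 0.49) and Bmp1 in 8 (0.36 to 0.47).

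A peptide of the endothelin family and the parathyroid hormone-related peptide rose. Edn3, which encodes endothelin 3 (chromosome 2, 174760619 to 174784042), stood at 0.847, 0.537, 0.696 and 0.534 CPM in the saline libraries and 1.89, 2.21, 4.29 and 2.12 CPM in the AngII libraries, a log2 fold change of 2.01 ± 0.31 (edgeR adjusted p = 0.0138). AngII 3 lay above the other 3 AngII libraries, which in turn lay above all saline libraries. Pthlh, the parathyroid hormone-related peptide (chromosome 6, 147252101 to 147264183), stood at 0.242, 0.595, 0.278 and 0.225 CPM in the saline libraries and 1.3, 2.3, 1.37 and 1.44 CPM in the AngII libraries, or 2.25 ± 0.38 (edgeR adjusted p = 0.0184). Its groups did not overlap either, although each had 1 library well above its other 3. These were 2 of 22 tested genes of the endothelin, PTHrP, adrenomedullin, apelin and relaxin list, and 0 members of it fell. Levels of both genes were low, so their fold changes rest on fewer counts than most below. Edn3 kept its call in all 8 fits that left out 1 library. Pthlh was no longer called in 4 fits (saline 1 or saline 4 or AngII 2 or AngII 4 left out, 2.03 to 2.67).

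Of 34 tested Wnt pathway genes 4 rose, all secreted, and 0 fell. Wnt9b, a ligand (chromosome 11, 103727364 to 103749821), stood at 0.242, 0.232, 0.278 and 0.169 CPM in the saline libraries and 0.744, 0.914, 1.47 and 1.97 CPM in the AngII libraries, a log2 fold change of 2.46 ± 0.39 (edgeR adjusted p = 0.0145). The other 3 encode secreted modulators of the pathway: Sfrp1 rose by 0.85 ± 0.11, Frzb by 1.04 ± 0.18 and Dkk3 by 1.22 ± 0.28. No tested Frizzled receptor was called. Dkk3 is also on the list of atrial markers, of which Nppa and Dkk3 rose and Kcnj3 fell among 8 tested. Sfrp1 kept its call in all 8 fits that left out 1 library. Wnt9b was no longer called in 2 fits (AngII 3 or AngII 4 left out, 2.17 to 2.65), Frzb in 2 (AngII 2 or AngII 3 left out, 0.89 to 1.11) and Dkk3 in 7 (1.04 to 1.52).

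The called fibroblast growth factors were lower. Of 18 tested FGF genes the receptor Fgfr3 rose and 2 ligands fell, with a list median of -0.256. Fgf16, a ligand made by cardiac muscle (chromosome X, 105764279 to 105774939), stood at 13.6, 12, 10.3 and 15.4 CPM in the saline libraries and 8.25, 7.27, 7.32 and 8.15 CPM in the AngII libraries, a log2 fold change of -0.73 ± 0.13 (edgeR adjusted p = 0.0223). Fgf1, acidic FGF (chromosome 18, 38838673 to 38929472), stood at 145, 121, 137 and 147 CPM in the saline libraries and 102, 92.6, 83.1 and 105 CPM in the AngII libraries, or -0.52 ± 0.10 (edgeR adjusted p = 0.0232). For each ligand the highest AngII library was below the lowest saline library. Fgfr3 rose by 1.17 ± 0.27. Fgf16 was no longer called in 5 fits (-0.82 to -0.62), Fgf1 in 5 (-0.58 to -0.46) and Fgfr3 in 7 (0.89 to 1.34).

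Among other growth factor genes, 4 of 44 PDGF, VEGF, angiopoietin and neurotrophin genes and related receptors rose and Angpt1 fell. Angpt1, the angiopoietin that activates the endothelial receptor Tie2, stood at 34.6, 42.2, 32.9 and 33.9 CPM in the saline libraries and 23.5, 22.4, 23.7 and 20.6 CPM in the AngII libraries, a log2 fold change of -0.67 ± 0.10 (edgeR adjusted p = 0.0108). The AngII libraries were close together and all below saline. Those that rose were Pdgfrl, a PDGF receptor-like protein (0.89 ± 0.15), the TAM receptor kinases Tyro3 (0.80 ± 0.17) and Axl (0.55 ± 0.12), and Kitl. Hbegf, a membrane-anchored EGF receptor ligand, and Egfr, the EGF receptor itself, rose by 0.53 ± 0.11 and 0.72 ± 0.16, 2 of 16 genes of that family. The IGF-binding protein genes Igfbp7 and Igfbp5 rose by 0.73 ± 0.11 and 0.49 ± 0.10, 2 of 17 in the IGF axis, whose median was 0.301. The calls of Angpt1 and Igfbp7 were kept in all 8 fits that left out 1 library. Pdgfrl was no longer called in 3 fits (saline 4 or AngII 2 or AngII 3 left out, 0.83 to 0.94), Tyro3 in 8 (0.73 to 0.85) and Axl in 6 (0.48 to 0.63). Hbegf was no longer called in 7 fits (0.46 to 0.60) and Egfr in 7 (0.64 to 0.82). Igfbp5 was no longer called in 6 fits (0.43 to 0.56) and Kitl in 8 (0.34 to 0.43).

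**Figure D3:**
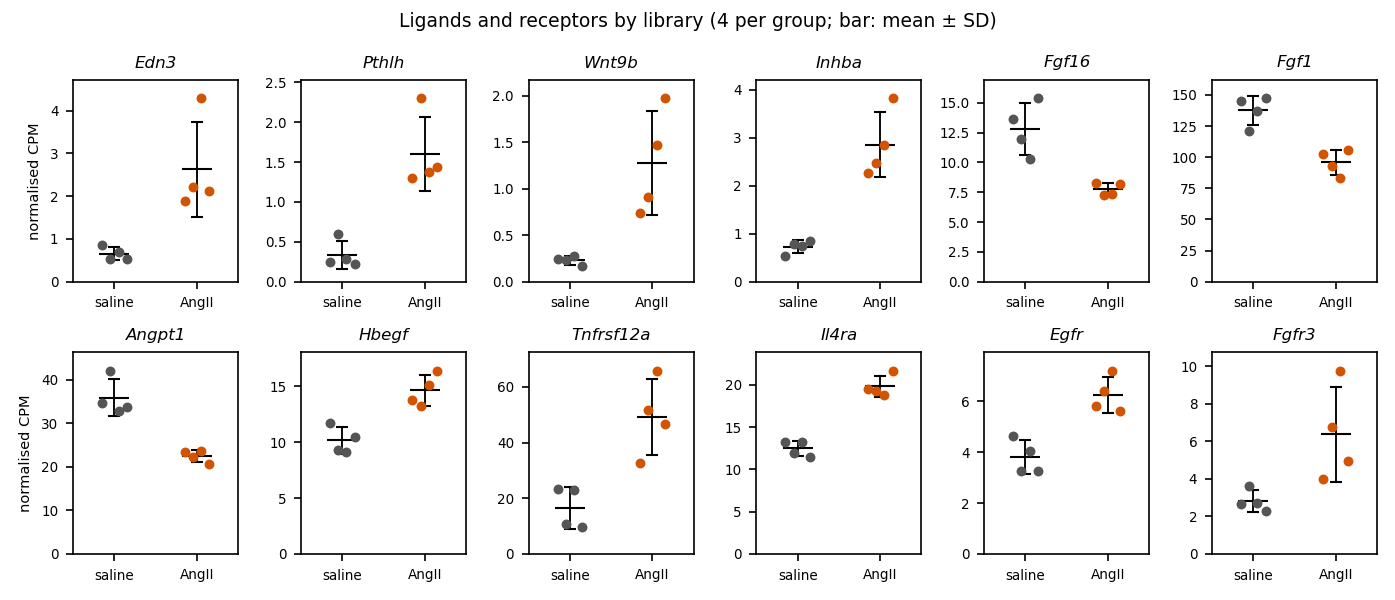
Normalised CPM of 12 ligand and receptor genes by library, 4 saline (grey) and 4 AngII (orange), with the mean and SD of each group; each y axis starts at 0. In all 12 panels the groups do not overlap, as for nearly all called genes. Fgf16, Fgf1 and Angpt1 are lower in AngII and the others higher.

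Of 18 renin-angiotensin and natriuretic genes, 3 rose, Nppa, Nppb and Ace. Ace, the angiotensin-converting enzyme, rose by 0.54 ± 0.11 on the log2 scale (edgeR adjusted p = 0.0342). Agtr1a, the type 1 angiotensin receptor that binds the infused peptide, stood at 32.8, 27.3, 31.8 and 42.5 CPM in the saline libraries and 25.4, 25.5, 16.9 and 22.2 CPM in the AngII libraries, a log2 fold change of -0.58 ± 0.16 that did not pass (edgeR adjusted p = 0.0791). Its groups did not overlap, as was so for 6.31% of all genes in that direction. Agtr1a did pass under some alternative, that is another test, scaling, filter or set of libraries. The calls of Nppa and Nppb were kept in all 8 fits that left out 1 library. Ace was no longer called in 6 fits (0.47 to 0.65).

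A receptor of each branch of the autonomic nerves fell. Of 68 tested adrenergic, muscarinic, adenosine, purine and lipid receptors 0 rose and 2 fell, against 2.14% and 1.24% of all genes, and the list median was 0.24. Chrm2, the muscarinic receptor that slows the heart, stood at 91, 92.8, 81.6 and 100.4 CPM in the saline libraries and 69.6, 71.2, 69.2 and 61.7 CPM in the AngII libraries, a log2 fold change of -0.43 ± 0.08 (edgeR adjusted p = 0.0277). Adrb1, the main beta-adrenergic receptor of heart muscle, stood at 10.3, 11.6, 10.8 and 11.3 CPM in the saline libraries and 8.68, 7.55, 8.07 and 6.96 CPM in the AngII libraries, or -0.49 ± 0.10 (edgeR adjusted p = 0.0329). In both genes every AngII library was below every saline library. Downstream, of 58 cyclases, phosphodiesterases and cyclic nucleotide kinases, Adcy7, Adcy4 and Pde8a rose (0.72 ± 0.15, 0.60 ± 0.14 and 0.45 ± 0.11) and Pde4a, a cAMP phosphodiesterase, fell (-0.52 ± 0.10). Arrb2, which uncouples receptors from G proteins, rose by 0.50 ± 0.12, the only call among 29 RGS, GRK and arrestin genes. Chrm2 was no longer called in 7 fits (-0.48 to -0.38), Adrb1 in 7 (-0.55 to -0.45) and Adcy7 in 6 (0.64 to 0.82). Adcy4 was no longer called in 7 fits (0.50 to 0.70) and Pde8a in 8 (0.36 to 0.52). Pde4a was no longer called in 6 fits (-0.59 to -0.46) and Arrb2 in 8 (0.43 to 0.55).

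The kinase cascades that carry hypertrophic signals held few calls among their own transcripts. Of 37 tested calcineurin, NFAT and CaMK genes 0 were called by edgeR (10 had an unadjusted p under 0.05, and DESeq2 called 1 higher and 2 lower), and the members with the smallest p were Rcan1, a calcineurin inhibitor that calcineurin itself induces (0.61 ± 0.16, adjusted p = 0.0658), and Ppp3cb, a calcineurin catalytic subunit (-0.52 ± 0.15, adjusted p = 0.0866). Over all 16754 tested genes, 3278 had an unadjusted p under 0.05. Of 82 MAP kinase genes, 2 small GTPases, Nras (0.37 ± 0.09) and Rras (0.38 ± 0.09), rose. Inpp5d, an inositol phosphatase of blood cells, was the only call among 43 PI3K, AKT and mTOR genes (0.71 ± 0.14). Socs2, a suppressor of cytokine signalling, and Osmr, the oncostatin M receptor, rose by 0.57 ± 0.11 and 0.45 ± 0.10, 2 of 33 in the JAK-STAT list. These shares lie near those of all genes for the MAP kinase and PI3K lists. Nras was no longer called in 8 fits (0.34 to 0.41), Rras in 7 (0.34 to 0.42) and Inpp5d in 6 (0.59 to 0.80). Socs2 was no longer called in 6 fits (0.52 to 0.64) and Osmr in 8 (0.38 to 0.49).

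Small GTPases of the actin skeleton and the YAP-TEAD pathway, which responds to stretch, held more calls. Of 102 tested members 7 rose, and for 23 members the AngII values lay above all saline values, against 7.54% of all genes. Ccn2, connective tissue growth factor and a TEAD target (chromosome 10, 24595442 to 24598683), stood at 62.9, 57.4, 54.4 and 57.5 CPM in the saline libraries and 104, 129.8, 137 and 161 CPM in the AngII libraries, a log2 fold change of 1.2 ± 0.12 (edgeR adjusted p = 0.00204). Vgll3, a TEAD cofactor, stood at 1.89, 1.68, 2.02 and 3.6 CPM in the saline libraries and 8.29, 6.1, 7.62 and 7.12 CPM in the AngII libraries, or 1.66 ± 0.24 (edgeR adjusted p = 0.00995). Neither gene showed any overlap between the groups, and 23.2% of Ccn2 is overlapped by exons on the opposite strand. Rhou, an atypical small GTPase, rose by 1.18 ± 0.17, and Rac2, Rhoc, Tead2 and Arhgap23 also rose. Rac2 is a GTPase of blood cells, and macrophage markers were higher as well, as given above. The number of higher members was 3 to 6 with 1 library left out. The calls of Ccn2, Vgll3 and Rhou were kept in all 8 fits that left out 1 library. Rac2 was no longer called in 8 fits (0.62 to 0.74) and Rhoc in 7 (0.40 to 0.52). Tead2 was no longer called in 7 fits (0.62 to 0.80) and Arhgap23 in 7 (0.41 to 0.54).

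Cytokine and chemokine genes had a median above 0 and few calls. The 96 tested members had a median of 0.375, with 72 above 0, and 3 rose and 1 fell. Tnfrsf12a, the TWEAK receptor induced in injured muscle (chromosome 17, 23675445 to 23677468), stood at 23.3, 10.7, 23 and 9.56 CPM in the saline libraries and 32.5, 51.6, 65.9 and 46.7 CPM in the AngII libraries, a log2 fold change of 1.56 ± 0.32 (edgeR adjusted p = 0.0309). Saline 1 and 3 were above saline 2 and 4, and all AngII libraries were higher still. Il4ra, a subunit of the interleukin 4 and 13 receptors, stood at 13.2, 12, 13.2 and 11.5 CPM in the saline libraries and 19.4, 19.3, 18.8 and 21.7 CPM in the AngII libraries, or 0.67 ± 0.09 (edgeR adjusted p = 0.00905). Ackr4, a scavenging chemokine receptor, rose by 0.86 ± 0.18, and Ccl11, the eosinophil attractant eotaxin, fell by 1.04 ± 0.23. Guidance genes held 1 call each way among 67, Sema3f (0.86 ± 0.13) and the ephrin receptor Epha4 (-0.63 ± 0.09). The calls of Il4ra, Sema3f and Epha4 were kept in all 8 fits that left out 1 library. Tnfrsf12a was no longer called in 6 fits (1.37 to 1.77), Ackr4 in 7 (0.74 to 1.01) and Ccl11 in 7 (-1.15 to -0.94).

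Ion channel genes that changed mostly fell. Of 57 potassium channel genes 0 rose and 2 fell, so 3.51% were called, near the 3.38% of all tested genes. Both are subunits of the same current. Kcnj5 (chromosome 9, 32314707 to 32344350) and Kcnj3 form the channel through which acetylcholine, acting on the Chrm2 receptor, slows the heart. Kcnj5 stood at 37.1, 45.8, 42 and 40.7 CPM in the saline libraries and 24.9, 22, 27 and 25.2 CPM in the AngII libraries, a log2 fold change of -0.74 ± 0.09 (edgeR adjusted p = 0.0070). Kcnj3 stood at 11.7, 9.98, 11.1 and 13.3 CPM in the saline libraries and 7.55, 5.17, 7.07 and 7.25 CPM in the AngII libraries, or -0.77 ± 0.14 (edgeR adjusted p = 0.0237). Every AngII library was below every saline library in both. Exons on the opposite strand overlap 31.1% of Kcnj3, which is also an atrial marker. In 10 of the 57 genes all AngII values were below all saline values, against 6.31% of all genes. In 5 they were above all saline values, against 7.54% of all genes, and the list median was -0.003. Kcnj5 kept its call in all 8 fits that left out 1 library. Kcnj3 was no longer called in 5 fits (-0.83 to -0.66).

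The potassium genes of repolarisation did not pass the threshold in the main fit. Kcnj2 and Kcnip2 did pass under some alternative fit, and Kcnd2 and Hcn4 under none. Kcnj2, the main inward rectifier of ventricular muscle, stood at 50.9, 38.6, 33.9 and 34.7 CPM in the saline libraries and 31, 26.2, 25.9 and 22.7 CPM in the AngII libraries (-0.58 ± 0.14, edgeR adjusted p = 0.055). Kcnip2, the accessory subunit of the transient outward current, stood at 164, 159, 149.7 and 197 CPM in the saline libraries and 128, 117, 124 and 141 CPM in the AngII libraries (-0.40 ± 0.10, edgeR adjusted p = 0.057). Both had every AngII library below every saline library. Kcnd2, a pore subunit of that current, had a log2 fold change of -0.37 ± 0.13 and the pacemaker channel gene Hcn4 of -0.41 ± 0.16 (edgeR adjusted p = 0.156 and 0.195).

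Of 20 sodium channel genes 2 fell and 0 rose. Scn4b, a beta subunit of the cardiac sodium channel (chromosome 9, 45138395 to 45154152), stood at 38.3, 30.1, 34.6 and 33 CPM in the saline libraries and 19.1, 14.1, 21.2 and 20.8 CPM in the AngII libraries, a log2 fold change of -0.85 ± 0.14 (edgeR adjusted p = 0.0148). Scn4a, the sodium channel of skeletal muscle, stood at 8.56, 8.52, 9.82 and 12 CPM in the saline libraries and 5.86, 4.2, 4.66 and 4.89 CPM in the AngII libraries, or -0.99 ± 0.15 (edgeR adjusted p = 0.0123). AngII 2 was the lowest library in both genes. The calls of Scn4b and Scn4a were kept in all 8 fits that left out 1 library.

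Of 52 calcium, TRP and other cation channel genes 4 fell and 1 rose. Cngb3, a subunit of a cyclic nucleotide-gated channel best known from cone photoreceptors, stood at 7.25, 7.73, 6.44 and 6.18 CPM in the saline libraries and 3.56, 3.04, 2.81 and 3.67 CPM in the AngII libraries, a log2 fold change of -1.08 ± 0.14 (edgeR adjusted p = 0.00751). Trpv4, a stretch- and osmosensitive calcium-permeable channel, stood at 2.9, 2.6, 3.85 and 2.31 CPM in the saline libraries and 5.52, 7.01, 6.33 and 6.69 CPM in the AngII libraries, or 1.13 ± 0.18 (edgeR adjusted p = 0.0138). The groups were well apart in both, in opposite directions. Pkd2l2 fell by 0.52 ± 0.09 on the log2 scale, and Tmem63b, an osmosensitive channel, by 0.49 ± 0.09, and Cacna1s also fell. Panx1, a pannexin that releases ATP, rose by 1.43 ± 0.32, and Clic1, a chloride intracellular channel protein, by 0.56 ± 0.11. Cngb3 kept its call in all 8 fits that left out 1 library. Trpv4 was no longer called in 1 fit (AngII 4 left out, 1.03 to 1.29), Pkd2l2 in 4 (saline 4 or AngII 2 or AngII 3 or AngII 4 left out, -0.58 to -0.48) and Tmem63b in 6 (-0.53 to -0.41). Panx1 was no longer called in 6 fits (1.2 to 1.64), Clic1 in 5 (0.47 to 0.63) and Cacna1s in 8 (-0.98 to -0.67).

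The calcium cycle of the cardiomyocyte held 1 call among 30 genes. Casq1, the skeletal form of the calcium-storing protein calsequestrin, stood at 5.01, 4.08, 4.74 and 4.43 CPM in the saline libraries and 7.66, 6.95, 7.04 and 6.75 CPM in the AngII libraries, a log2 fold change of 0.64 ± 0.12 (edgeR adjusted p = 0.023). Atp2a2, the pump that refills the sarcoplasmic reticulum, stood at 7233, 6288, 7139 and 9202 CPM in the saline libraries and 5282, 5163, 5710.0 and 5722 CPM in the AngII libraries (-0.45 ± 0.12, edgeR adjusted p = 0.0623). Its groups did not overlap but it was not called in the main fit, although it passed under some alternative fit. Cacna1c, the pore of the L-type calcium channel, had a log2 fold change of -0.30 ± 0.11 (edgeR adjusted p = 0.168). Cardiomyocyte markers as a whole had a median of -0.161, and the part of that shift in the lower channel genes was not tested. Casq1 was no longer called in 5 fits (0.58 to 0.68).

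**Figure D4:**
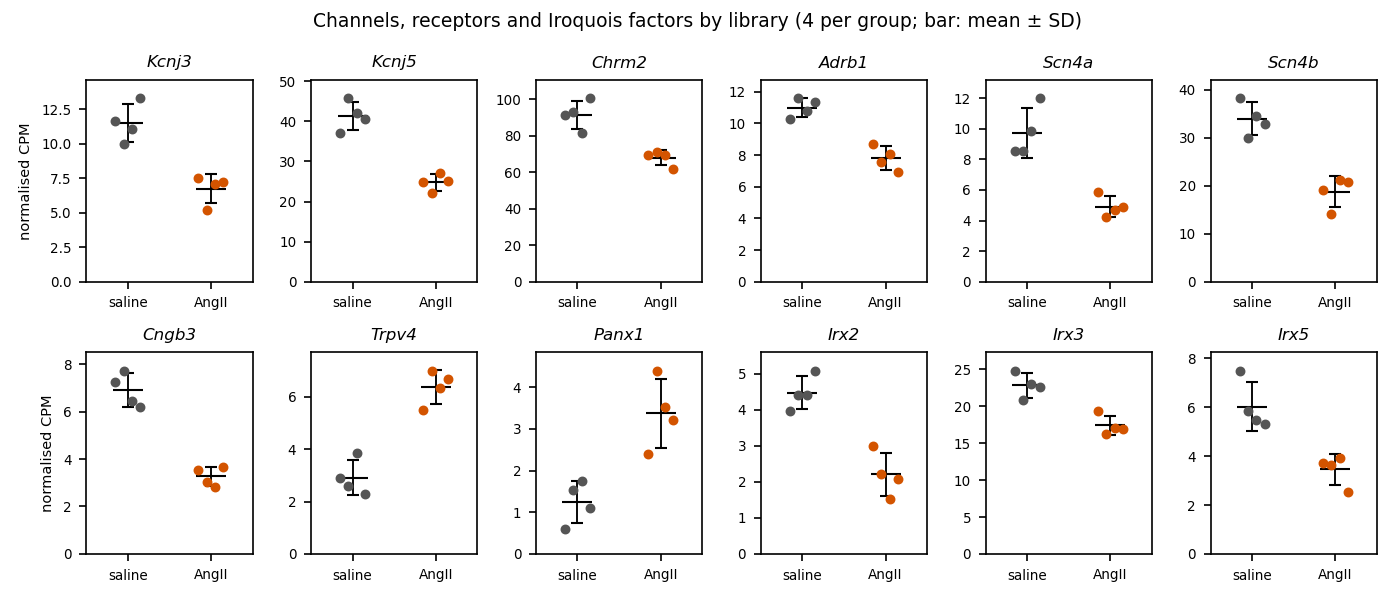
Normalised CPM by library for channel, receptor and Iroquois transcription factor genes, 4 saline (grey) and 4 AngII (orange) with mean and SD; each y axis starts at 0. Of the 12 genes, Trpv4 and Panx1 are higher in AngII and the other 10 lower, with no overlap in any panel, as for nearly all called genes.

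Solute carriers, 239 tested, held 1 higher and 7 lower genes, against 2.14% and 1.24% of all genes. In either direction 3.35% were called, near the 3.38% of all tested genes, and the list median was 0.006. Slc25a42, the mitochondrial carrier that brings in coenzyme A (chromosome 8, 70184340 to 70212305), stood at 59.8, 54.1, 53.8 and 63.2 CPM in the saline libraries and 36.4, 29.6, 30 and 30.5 CPM in the AngII libraries, a log2 fold change of -0.87 ± 0.09 (edgeR adjusted p = 0.00347). AngII 1 was above the other 3 AngII libraries and still below all saline libraries. Slc22a3, an organic cation transporter that takes up monoamines, stood at 6.11, 6.38, 5.83 and 7.27 CPM in the saline libraries and 3.9, 1.7, 2.72 and 2.93 CPM in the AngII libraries, or -1.18 ± 0.22 (edgeR adjusted p = 0.0245). Slc36a2, an amino acid transporter, fell by 0.55 ± 0.10, and Slc16a10, Slc25a20, Slc7a1 and Slc20a2 also fell. Slc43a3, a purine base transporter, rose by 0.58 ± 0.10. The glucose transporters did not pass, Slc2a4 of muscle at -0.37 ± 0.09 and Slc2a1 at 0.09 ± 0.14 (edgeR adjusted p = 0.0625 and 0.797). Slc2a4 did pass under some alternative fit, and Slc2a1 under none. Scaled by library totals, 2 solute carriers rose and 2 fell. Slc25a42 kept its call in all 8 fits that left out 1 library. Slc22a3 was no longer called in 4 fits (saline 1 or saline 4 or AngII 3 or AngII 4 left out, -1.38 to -1.01), Slc36a2 in 5 (-0.61 to -0.49) and Slc43a3 in 5 (0.51 to 0.66). Slc16a10 was no longer called in 7 fits (-0.49 to -0.40) and Slc25a20 in 7 (-0.46 to -0.34). Slc7a1 was no longer called in 8 fits (-0.60 to -0.46) and Slc20a2 in 7 (-0.53 to -0.35).

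The called genes of mitochondrial fuel oxidation were mostly lower, by small amounts, and came from several pathways. The promoter windows of 2 of them, Ivd and Got1, called lower members of the amino acid and TCA cycle lists, are shown because they carry several copies of a motif whose share among higher and lower genes is given below them. They are the 250 bases before the transcription start of each gene, on its own strand, from RefSeq on build GRCm38.p6 (Ivd chr2:118861744-118861993, plus strand; Got1 chr19:43524606-43524855, minus strand). Capitals mark CCAAT in either orientation (ATTGG on the strand shown) and, in Got1, AAGGTCA, the letters bound by ERR-type nuclear receptors.
Ivd: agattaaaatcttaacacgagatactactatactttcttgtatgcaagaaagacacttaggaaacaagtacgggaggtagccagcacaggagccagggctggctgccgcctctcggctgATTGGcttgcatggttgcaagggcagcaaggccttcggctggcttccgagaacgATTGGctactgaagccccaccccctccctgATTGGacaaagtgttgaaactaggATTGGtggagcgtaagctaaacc
Got1: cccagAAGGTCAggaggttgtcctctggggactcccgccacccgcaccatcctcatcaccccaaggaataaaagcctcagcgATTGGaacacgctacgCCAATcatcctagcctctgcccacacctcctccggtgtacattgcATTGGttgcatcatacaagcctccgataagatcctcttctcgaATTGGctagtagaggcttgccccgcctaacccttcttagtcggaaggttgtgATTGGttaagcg
The Ivd window held 4 matches to CCAAT and the Got1 window 5. Of 10860 tested protein-coding genes with a window, 40.1% held CCAAT on either strand, as did 54.0% of the 150 lower and 36.4% of the 253 higher genes with a window. AAGGTCA was found in 3.48% of tested, 5.33% of lower and 2.37% of higher genes. Over all 27025 genes with a window the shares were 37.5% for CCAAT and 4.70% for AAGGTCA. A match is a description of these letters and not a site of binding. GENCODE places the start of Ivd at 118861954, inside its window, so positions there hold for the RefSeq start only.

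Branched-chain amino acid breakdown held the largest share of lower genes of the functional lists. Of 28 tested ketone body and branched-chain amino acid genes 9 fell and 0 rose, against 1.24% and 2.14% of all genes, and the median was -0.224. Ivd, which acts on the leucine pathway (chromosome 2, 118861954 to 118882909), stood at 191, 171, 154 and 173 CPM in the saline libraries and 104, 92.9, 105 and 107 CPM in the AngII libraries, a log2 fold change of -0.75 ± 0.08 (edgeR adjusted p = 0.00371). Pcca, a subunit of propionyl-CoA carboxylase, stood at 75.8, 72.8, 76.9 and 86 CPM in the saline libraries and 60.5, 55.5, 55.1 and 58 CPM in the AngII libraries, or -0.44 ± 0.08 (edgeR adjusted p = 0.0195). Both had their 4 AngII libraries close together and below saline. Of the branched-chain keto acid dehydrogenase, Bckdha fell by 0.52 ± 0.10 and Dbt by 0.47 ± 0.09 on the log2 scale. Exons on the opposite strand overlap 61.7% of Bckdha. The other 5 that fell were Pccb, Auh, Aldh6a1, Mccc2 and Acad8, so the calls covered the leucine, isoleucine and valine branches. No called member belongs to ketone body use. The count of lower members was 1 to 7 with 1 library left out and 5 when scaled by library totals. Ivd kept its call in all 8 fits that left out 1 library. Pcca was no longer called in 3 fits (AngII 2 or AngII 3 or AngII 4 left out, -0.48 to -0.39), Bckdha in 4 (saline 3 or AngII 2 or AngII 3 or AngII 4 left out, -0.57 to -0.44) and Dbt in 6 (-0.53 to -0.42). Pccb was no longer called in 7 fits (-0.34 to -0.28), Auh in 7 (-0.41 to -0.31) and Aldh6a1 in 8 (-0.37 to -0.30). Mccc2 was no longer called in 7 fits (-0.41 to -0.30) and Acad8 in 7 (-0.45 to -0.33).

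Of 48 tested genes of fatty acid uptake and oxidation 8 fell and 2 rose, the median was -0.264 and 41 lay below 0. Hadhb, a subunit of the mitochondrial trifunctional protein (chromosome 5, 30155248 to 30184593), stood at 1471, 1287, 1315 and 1483 CPM in the saline libraries and 1011, 976, 1072 and 1050.0 CPM in the AngII libraries, a log2 fold change of -0.43 ± 0.08 (edgeR adjusted p = 0.0204). Hadh, a dehydrogenase of beta-oxidation, stood at 626, 588, 591 and 643 CPM in the saline libraries and 463, 458, 471 and 503 CPM in the AngII libraries, or -0.37 ± 0.07 (edgeR adjusted p = 0.023). In both the groups were apart, with little spread within a group. Acad11, an acyl-CoA dehydrogenase, fell by 0.41 ± 0.08. Acaa2, Slc25a20, Hadha and Acsl1 also fell, which covers activation, carnitine transfer and the oxidation spiral. The remaining lower member, Acad8, is the one counted among the branched-chain genes above as well. The 2 that rose were Acsl5 (0.53 ± 0.10), an acyl-CoA synthetase, and Fabp4, a lipid-binding protein of fat and endothelial cells that is also an adipocyte marker. Summed adipocyte markers were 537.7 to 594 CPM in saline and 687 to 893 CPM in AngII, with 1 of 5 tested past the threshold. Cpt1b, the muscle gate of fatty acid entry, was not called (-0.28 ± 0.14), and 81.4% of its exons overlap another gene on the same strand. The lower count was 0 to 10 with 1 library left out and 4 when scaled by library totals. Hadhb was no longer called in 4 fits (saline 1 or AngII 2 or AngII 3 or AngII 4 left out, -0.47 to -0.40), Hadh in 5 (-0.40 to -0.34) and Acad11 in 6 (-0.47 to -0.37). Acsl5 was no longer called in 5 fits (0.45 to 0.57), Fabp4 in 8 (0.32 to 0.45) and Acaa2 in 7 (-0.44 to -0.33). Hadha was no longer called in 7 fits (-0.57 to -0.40) and Acsl1 in 7 (-0.72 to -0.51).

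Pyruvate oxidation and the TCA cycle held 5 lower and 0 higher genes among 37 tested, with a median of -0.226 and 33 below 0. Pdpr, a regulator of pyruvate dehydrogenase phosphatase, stood at 38.7, 32, 34.2 and 34.3 CPM in the saline libraries and 25.2, 22.2, 23 and 26.3 CPM in the AngII libraries, a log2 fold change of -0.53 ± 0.09 (edgeR adjusted p = 0.020). Idh3g, a subunit of NAD-dependent isocitrate dehydrogenase, fell by 0.40 ± 0.08 on the log2 scale. Pcx, pyruvate carboxylase, fell by 0.43 ± 0.09, and Got1, the cytosolic aspartate aminotransferase of the malate shuttle, by 0.41 ± 0.09. Cs, citrate synthase, was the fifth. The count was 0 to 4 with 1 library left out and 1 when scaled by library totals. Pdk4, the kinase that shuts pyruvate dehydrogenase, ranged from 115 to 489 CPM in saline and from 239.8 to 523 CPM in AngII and was not called (0.45 ± 0.39). In glucose use 2 of 49 genes fell, Phkg1, the muscle phosphorylase kinase (15.5, 14.2, 12.5 and 14.6 CPM in the saline libraries and 9.12, 7.78, 7.81 and 8.87 CPM in the AngII libraries, -0.76 ± 0.11), and Ldhd, D-lactate dehydrogenase (-0.52 ± 0.07), of which 42.2% overlaps exons on the opposite strand. The calls of Phkg1 and Ldhd were kept in all 8 fits that left out 1 library. Pdpr was no longer called in 3 fits (saline 1 or AngII 2 or AngII 3 left out, -0.57 to -0.47), Idh3g in 6 (-0.44 to -0.34) and Pcx in 7 (-0.47 to -0.37). Got1 was no longer called in 7 fits (-0.46 to -0.33) and Cs in 7 (-0.47 to -0.33).

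The respiratory chain was not called as part of this. Of 85 nuclear-encoded oxidative phosphorylation subunits 0 were called by edgeR (6 higher and 17 lower had an unadjusted p under 0.05, and DESeq2 called 4 lower and 1 higher), and their median was -0.017. The smallest p belonged to Ndufs1 of complex I (-0.32 ± 0.09, edgeR adjusted p = 0.0767) and Sdha of complex II (-0.36 ± 0.10, edgeR adjusted p = 0.0783). Of 13 mitochondrially encoded transcripts 0 were called by edgeR or DESeq2 and 1 had an unadjusted p under 0.05, with mt-Nd5 at -0.24 ± 0.11 and mt-Co3 at 0.24 ± 0.12. Coq8a, an atypical kinase required to make coenzyme Q (chromosome 1, 180165238 to 180199602), stood at 408, 383, 212 and 519.9 CPM in the saline libraries and 209.5, 139.7, 160.1 and 162 CPM in the AngII libraries, a log2 fold change of -1.18 ± 0.23 (edgeR adjusted p = 0.0281). Its saline libraries spread widely, lowest in saline 3 and highest in saline 4, and its highest AngII library lay just below saline 3. Of 32 creatine and adenylate genes 0 were called by edgeR, while 2 higher and 10 lower had an unadjusted p under 0.05 and DESeq2 called 5 lower. The smallest p were those of the AMP kinase subunits Prkab1 (-0.51 ± 0.12, adjusted p = 0.0523) and Prkag1 (-0.29 ± 0.07, adjusted p = 0.0573), and 43.7% of Prkag1 is overlapped by exons on the opposite strand. Mthfd2, the mitochondrial folate enzyme of growing cells, rose by 0.96 ± 0.22, the only call among 25 serine and one-carbon genes, and Elovl1, a fatty acid elongase, rose by 0.44 ± 0.09. Coq8a was no longer called in 6 fits (-1.38 to -0.99), Mthfd2 in 8 (0.84 to 1.12) and Elovl1 in 7 (0.39 to 0.48).

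**Figure D5:**
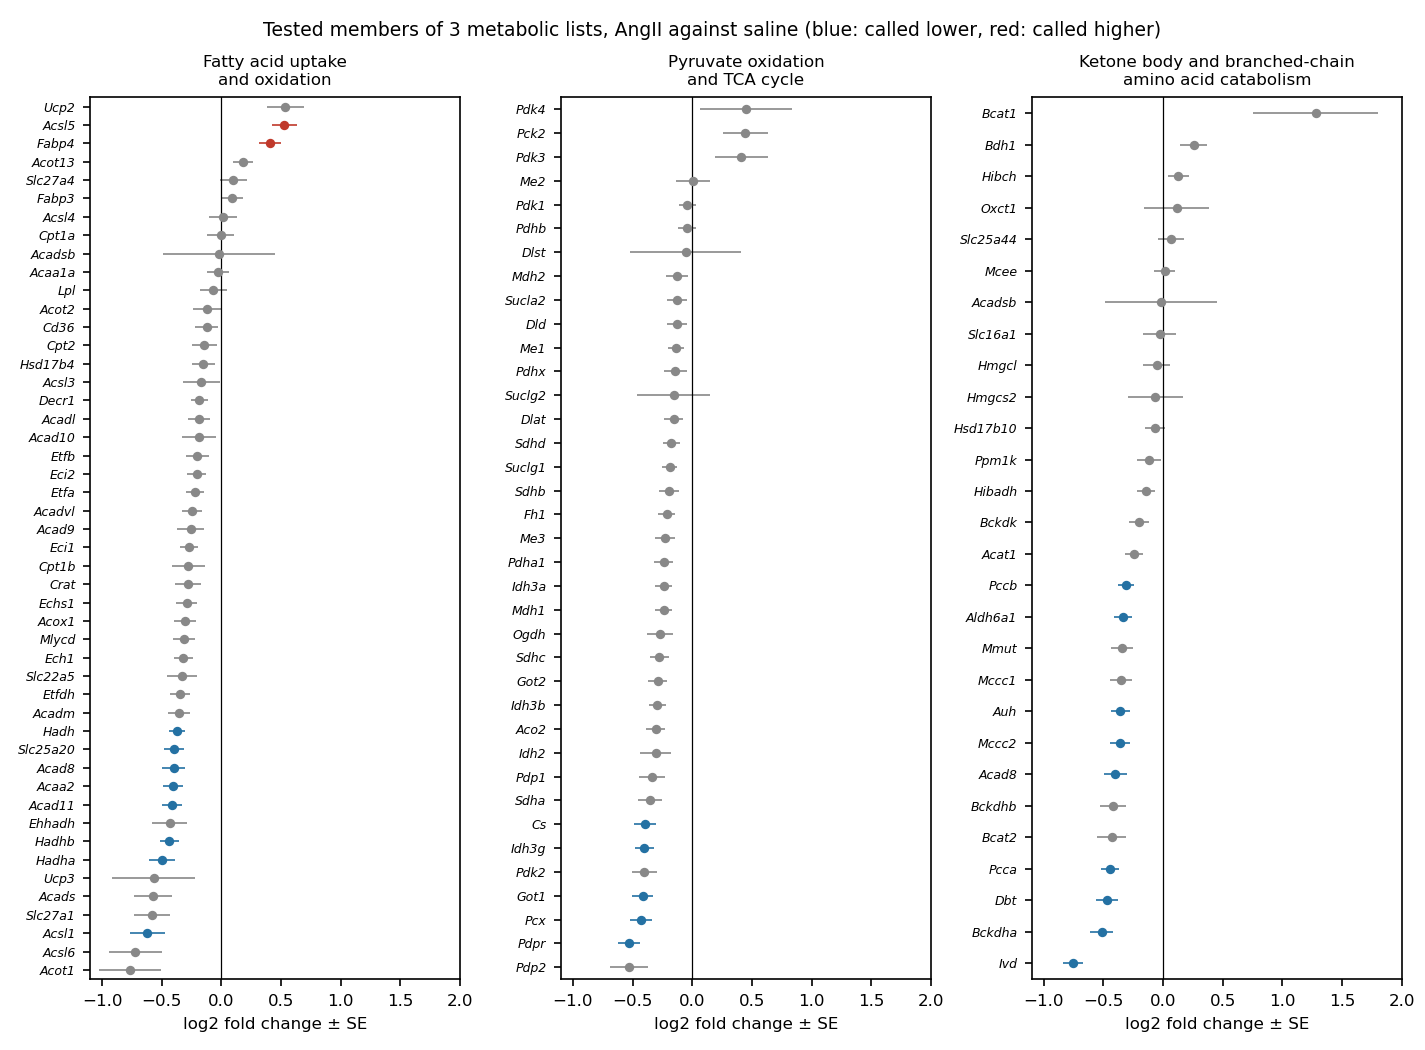
Log2 fold change ± SE, AngII against saline, of every tested member of 3 metabolic lists (48, 37 and 28 genes), sorted by value; blue marks genes called lower, red higher and grey not called. Most members of each list lie left of 0, including 41 of 48, 33 of 37 and 22 of 28.

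The regulators of these enzymes gave 3 calls among 30 tested, all lower. Ncoa1, the nuclear receptor coactivator SRC-1 (chromosome 12, 4247362 to 4477182), stood at 18.6, 17.2, 21.6 and 20 CPM in the saline libraries and 10.1, 8.62, 6.82 and 12.8 CPM in the AngII libraries, a log2 fold change of -1.01 ± 0.17 (edgeR adjusted p = 0.0195). Rxrg, the muscle form of the retinoid X receptor, stood at 65.1, 63.2, 65.3 and 66.1 CPM in the saline libraries and 49.9, 46, 54.4 and 47.6 CPM in the AngII libraries, or -0.39 ± 0.07 (edgeR adjusted p = 0.0245). Its saline libraries lay close together and the AngII libraries below them. Lpin1, a phosphatidate phosphatase and coactivator, fell by 0.43 ± 0.09. Ppargc1a, the coactivator PGC-1 alpha, ranged from 64.9 to 80.4 CPM in saline and from 56.4 to 91.6 CPM in AngII and was not called (0.07 ± 0.14). Ppara and Esrra, nuclear receptors of fatty acid oxidation, had log2 fold changes of -0.44 ± 0.20 and -0.17 ± 0.08 (edgeR adjusted p = 0.254 and 0.296). Ncoa1 was no longer called in 2 fits (saline 4 or AngII 2 left out, -1.19 to -0.88), Rxrg in 5 (-0.44 to -0.36) and Lpin1 in 7 (-0.49 to -0.37).

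Called cardiac transcription factors were all lower. Of 37 tested 4 fell and 0 rose, the median was -0.194, and 11 members had every AngII value below every saline value, against 6.31% of all genes. Of the 4, 3 belong to the Iroquois homeobox family, which patterns conduction and repolarisation in the ventricle. Irx2 (chromosome 13, 72628820 to 72634198) stood at 3.98, 4.42, 4.41 and 5.09 CPM in the saline libraries and 2.99, 2.23, 1.52 and 2.08 CPM in the AngII libraries, a log2 fold change of -1.02 ± 0.21 (edgeR adjusted p = 0.031). Irx5 stood at 7.5, 5.86, 5.47 and 5.3 CPM in the saline libraries and 3.72, 3.65, 3.94 and 2.53 CPM in the AngII libraries, or -0.80 ± 0.18 (edgeR adjusted p = 0.0421). Irx3 stood at 24.8, 20.8, 23 and 22.6 CPM in the saline libraries and 19.3, 16.3, 17.1 and 16.9 CPM in the AngII libraries, or -0.39 ± 0.09 (edgeR adjusted p = 0.0497). Groups were apart in all 3, narrowly for Irx3. Hopx, a homeodomain-only protein, fell by 0.42 ± 0.08, and 27.2% of it overlaps exons on the opposite strand. Of those not called, Tbx5 stood at -0.59 ± 0.15, Gata4 at -0.32 ± 0.10 and Nkx2-5 at -0.20 ± 0.13 (edgeR adjusted p = 0.0608, 0.104 and 0.447). Tbx5 and Gata4 did pass under some alternative fit, and Nkx2-5 under none. Mef2c had 6.7, 8.6, 32.5 and 7.76 CPM in saline, where saline 3 stood far above the rest, and 5.06, 8.38, 4.15 and 4.44 CPM in AngII (-1.33 ± 0.49, not called). The lower count was 0 to 4 with 1 library left out and 1 when scaled by library totals. Irx2 was no longer called in 7 fits (-1.2 to -0.88) and Irx5 in 8 (-0.87 to -0.68). Irx3 was no longer called in 7 fits (-0.45 to -0.35) and Hopx in 6 (-0.49 to -0.37).

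Other transcription factors gave few calls. Meox1, a homeobox factor of activated fibroblasts (chromosome 11, 101877510 to 101894374), stood at 11.1, 9.12, 16.6 and 7.16 CPM in the saline libraries and 25.9, 25.8, 29.2 and 26.4 CPM in the AngII libraries, a log2 fold change of 1.29 ± 0.22 (edgeR adjusted p = 0.0173). It is one of the 7 fibroblast markers that rose. Foxn2, a forkhead factor, rose by 0.50 ± 0.12, and these were 2 of 69 SOX, FOX and homeobox genes. Snai3, a zinc finger of the Snail family, stood at 5.64, 5.85, 5.47 and 4.6 CPM in the saline libraries and 3.08, 1.77, 1.46 and 1.87 CPM in the AngII libraries, or -1.39 ± 0.23 (edgeR adjusted p = 0.0162). It was the only lower call among 77 tested basic helix-loop-helix, SNAI and related factors, and Irf8, an interferon regulatory factor of myeloid cells on the same list, rose by 0.64 ± 0.13. Ier5, an immediate early gene, rose by 0.94 ± 0.19, 1 of 29. Meox1 was no longer called in 3 fits (saline 1 or AngII 3 or AngII 4 left out, 1.13 to 1.56), Foxn2 in 8 (0.45 to 0.56) and Snai3 in 2 (AngII 2 or AngII 4 left out, -1.66 to -1.27). Irf8 was no longer called in 7 fits (0.58 to 0.72) and Ier5 in 6 (0.80 to 1.09).

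Fos and Egr1 varied within each group by more than any difference between them. Fos stood at 7.16, 11.9, 8.57 and 2.62 CPM in the saline libraries and 8.94, 9.98, 2.47 and 3.06 CPM in the AngII libraries (-0.31 ± 0.51), and Egr1 at 42.1, 52.6, 56.5 and 15.5 CPM in the saline libraries and 48.3, 74.8, 20.8 and 15.5 CPM in the AngII libraries (-0.06 ± 0.50). Of 18 KLF and SP factors 0 were called by edgeR, 3 had an unadjusted p under 0.05 and DESeq2 called 2 higher; the smallest p were those of Klf13 (0.40 ± 0.11) and Klf3 (0.39 ± 0.11). Of 25 clock genes 0 were called by edgeR or DESeq2 and 1 had an unadjusted p under 0.05, with Csnk1d at 0.20 ± 0.08 and Nfil3 at 0.31 ± 0.14. Chromatin enzymes, 104 tested, held 3 lower and 0 higher genes, Ncoa1, Hdac11 and Kdm6a. Hdac11, a class IV histone deacetylase, stood at 20.2, 21, 18.2 and 15.9 CPM in the saline libraries and 9.02, 10.7, 6.07 and 11.8 CPM in the AngII libraries, a log2 fold change of -1.0 ± 0.19, and Kdm6a, an X-linked histone demethylase, fell by 0.50 ± 0.11. Of 23 glucocorticoid targets and metallothioneins Lyve1, Mt2 and Fkbp5 rose. Fkbp5, a co-chaperone of the glucocorticoid receptor, stood at 4.74, 4.53, 8.23 and 10.8 CPM in the saline libraries and 10.4, 21.4, 16.6 and 22.2 CPM in the AngII libraries (1.32 ± 0.31), with saline 4 just above AngII 1. Mt2, a metallothionein, rose by 1.65 ± 0.37, with AngII 4 far above the rest, and exons on the opposite strand overlap 73.5% of it. Lyve1, a hyaluronan receptor of lymphatic vessels and resident macrophages, rose by 0.72 ± 0.16. Hdac11 was no longer called in 4 fits (saline 1 or saline 2 or AngII 1 or AngII 2 left out, -1.14 to -0.85), Kdm6a in 7 (-0.56 to -0.45) and Lyve1 in 7 (0.61 to 0.83). Mt2 was no longer called in 7 fits (1.1 to 1.84) and Fkbp5 in 6 (1.15 to 1.60).

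Among muscle structure genes, those called were mostly higher. Of 61 sarcomere and Z-disc genes 9 rose and 1 fell, and those with the largest changes are proteins of fetal or skeletal muscle. The windows of Acta1 and Xirp2 were taken as above (Acta1 chr8:123894776-123895025, minus strand, and Xirp2 chr2:67445752-67446001, plus strand). They are shown because Acta1 holds a CArG box and CATTCC and Xirp2 a MEF2 site, motifs of muscle and stretch response. Capitals mark matches to any of the motifs searched.
Acta1: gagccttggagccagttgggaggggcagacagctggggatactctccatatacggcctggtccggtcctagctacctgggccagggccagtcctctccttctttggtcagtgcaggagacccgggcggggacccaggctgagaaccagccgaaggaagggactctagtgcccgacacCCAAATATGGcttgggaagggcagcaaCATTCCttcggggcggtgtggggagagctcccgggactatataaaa
Xirp2: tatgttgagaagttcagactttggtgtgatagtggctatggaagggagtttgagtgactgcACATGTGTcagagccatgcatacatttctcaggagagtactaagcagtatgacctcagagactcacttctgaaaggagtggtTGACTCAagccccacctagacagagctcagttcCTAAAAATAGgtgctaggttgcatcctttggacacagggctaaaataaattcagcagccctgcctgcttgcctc
In Acta1 the capitals mark a CArG box that begins 73 bases before the start and CATTCC, the letters bound by TEAD factors, at 46. In Xirp2 they mark ACANNTGT at 189, TGANTCA, the AP-1 letters, at 107 and a MEF2 site at 74. No motif overlaps another in these windows. GENCODE places the start of Acta1 at 123894751, away from the RefSeq start used here, so its distances hold for the RefSeq start only. A CArG box was found in 1.45% of tested, 1.58% of higher and 1.33% of lower genes with a window, and a MEF2 site in 0.589%, 0.791% and 2.0%. These shares rest on few genes, 4 higher and 2 lower for the CArG box and 2 higher and 3 lower for the MEF2 site. For CATTCC the shares were 13.1%, 15.4% and 20%, for TGANTCA 5.61%, 9.09% and 8.0%, and for ACANNTGT 4.33%, 7.11% and 6.0%. Over all genes with a window they were 1.62%, 0.592%, 14.4%, 7.82% and 7.20% in the same order.

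Acta1, skeletal alpha-actin (chromosome 8, 123891769 to 123894751), stood at 344, 134, 273 and 117 CPM in the saline libraries and 529, 543, 853 and 836 CPM in the AngII libraries, a log2 fold change of 1.67 ± 0.33 (edgeR adjusted p = 0.0296). Saline 1 and 3 were above saline 2 and 4, and all AngII libraries were above them. Mybpc2, the fast skeletal myosin-binding protein C, stood at 5.02, 2.47, 4.98 and 4.6 CPM in the saline libraries and 18.2, 15.8, 16.3 and 18.5 CPM in the AngII libraries, or 2.01 ± 0.20 (edgeR adjusted p = 0.00204). Xirp2, a Xin repeat protein of the intercalated disc, stood at 140.3, 165, 219 and 193 CPM in the saline libraries and 314, 276, 494 and 319 CPM in the AngII libraries, or 0.97 ± 0.19 (edgeR adjusted p = 0.0281), highest in AngII 3. Myot, a Z-disc protein that is also a skeletal muscle marker, rose by 1.03 ± 0.17, and Nrap, on the intercalated disc list, which anchors thin filaments at the disc, by 0.60 ± 0.12. Myl1, Synpo2l, Tpm2, Ankrd23 and Tpm3 also rose. Summed skeletal muscle markers overlapped between the groups, at 1541 to 1908 and 1511 to 1946 CPM, and Myh2 was at 0 in all 8 libraries. The cardiac myosin heavy chains were not called, Myh6 at -0.18 ± 0.17 and Myh7 at 0.09 ± 0.18 (edgeR adjusted p = 0.603 and 0.831). The count of higher members was 1 to 7 with 1 library left out. Mybpc2 kept its call in all 8 fits that left out 1 library. Acta1 was no longer called in 5 fits (1.46 to 1.98), Xirp2 in 5 (0.75 to 1.08) and Myot in 3 (saline 4 or AngII 3 or AngII 4 left out, 0.89 to 1.14). Nrap was no longer called in 5 fits (0.50 to 0.69), Myl1 in 7 (0.78 to 1.03) and Synpo2l in 6 (0.76 to 1.04). Tpm2 was no longer called in 7 fits (0.44 to 0.59), Ankrd23 in 7 (0.85 to 1.22) and Tpm3 in 7 (0.37 to 0.53).

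Ky, a Z-disc protein needed to maintain muscle, was the sarcomere gene that fell. It stood at 16.7, 14.8, 17.8 and 20.3 CPM in the saline libraries and 10.9, 6.81, 6.34 and 8.72 CPM in the AngII libraries, a log2 fold change of -1.09 ± 0.18 (edgeR adjusted p = 0.0152). Ank3, an ankyrin that holds sodium channels at the disc, fell by 0.49 ± 0.11. In protein turnover Asb15, a muscle ubiquitin ligase adaptor, stood at 54.4, 45.6, 53.8 and 63.2 CPM in the saline libraries and 37.3, 34, 34.1 and 33.5 CPM in the AngII libraries, or -0.64 ± 0.10 (edgeR adjusted p = 0.0138). AngII 1 was above the other 3 AngII libraries and below saline. Nedd4, a ubiquitin ligase, fell by 0.42 ± 0.08, and 0 of the 36 atrophy and autophagy genes rose. Hspb7, a small heat shock protein of heart muscle, rose by 0.64 ± 0.12, the only call among 28 chaperones. Of 33 unfolded protein response genes 0 were called by edgeR, 6 higher and 4 lower had an unadjusted p under 0.05 and DESeq2 called 4 higher and 1 lower, with Canx at -0.33 ± 0.08 and Atf5 at 0.52 ± 0.13. Ky was no longer called in 1 fit (AngII 4 left out, -1.26 to -0.98), Ank3 in 8 (-0.55 to -0.43) and Asb15 in 2 (AngII 3 or AngII 4 left out, -0.72 to -0.56). Nedd4 was no longer called in 6 fits (-0.47 to -0.39) and Hspb7 in 5 (0.58 to 0.76).

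Matrix genes other than collagens were often called higher. Of 69 integrin, laminin, elastic fibre and focal adhesion genes 11 rose and 1 fell, the median was 0.321, and 26 had all AngII values above all saline values, against 7.54% of all genes. Eln, elastin, stood at 18.2, 14.6, 22.4 and 11.3 CPM in the saline libraries and 50.1, 47.1, 49.7 and 66.3 CPM in the AngII libraries, a log2 fold change of 1.68 ± 0.20 (edgeR adjusted p = 0.00462), highest in AngII 4. Mfap5 and Mfap4, microfibril proteins of elastic fibres, rose by 1.62 ± 0.16 and 1.64 ± 0.21, and Fbln2, a fibulin, by 0.72 ± 0.11. Outside the list, Cilp, a matrix protein of activated fibroblasts, stood at 10.4, 9.14, 11.4 and 6.72 CPM in the saline libraries and 35.3, 37, 35.9 and 34.2 CPM in the AngII libraries, or 1.91 ± 0.15. Postn, periostin, rose by 1.8 ± 0.14, Adamtsl2, a secreted microfibril-binding protein, by 1.64 ± 0.21, and Timp1, a metalloproteinase inhibitor, by 1.87 ± 0.30. Summed fibroblast markers did not overlap between the groups, as given above, and their part was not tested. The calls of Eln, Mfap5, Mfap4, Fbln2, Cilp, Postn and Adamtsl2 were kept in all 8 fits that left out 1 library. Timp1 was no longer called in 1 fit (AngII 4 left out, 1.63 to 2.04).

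Of the 15 largest increases (called, protein-coding, groups apart, averaging 1 CPM or more), 2 others do not fall into these lists. Emp1, an epithelial membrane protein of the PMP22 family (chromosome 6, 135362545 to 135383173), stood at 10.9, 10.4, 10.1 and 6.24 CPM in the saline libraries and 14.9, 117, 123 and 18.4 CPM in the AngII libraries, a log2 fold change of 2.86 ± 0.65 (edgeR adjusted p = 0.0446). AngII 2 and 3 were far above AngII 1 and 4, which were nearer to the saline libraries. Ttc9, a tetratricopeptide repeat protein, stood at 0.862, 0.754, 1.18 and 0.562 CPM in the saline libraries and 2.35, 3.07, 2.71 and 3.23 CPM in the AngII libraries, or 1.75 ± 0.25. Ttc9 kept its call in all 8 fits that left out 1 library. Emp1 was no longer called in 7 fits (2.40 to 3.19).

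Of the 20 largest decreases by the same rule, 10 are described above and 10 follow. Jmjd8, a JmjC-domain protein of the endoplasmic reticulum, stood at 16.8, 5.67, 12.3 and 20 CPM in the saline libraries and 5.06, 3.58, 5.31 and 4.38 CPM in the AngII libraries, a log2 fold change of -1.58 ± 0.32 (edgeR adjusted p = 0.031). Its saline libraries spread from saline 2, just above the AngII values, to saline 4, and exons on the opposite strand overlap 39.3% of it. Pacsin2, a membrane-bending protein of caveolae (chromosome 15, 83375607 to 83464606), stood at 119, 113, 119.6 and 128 CPM in the saline libraries and 48.8, 87.9, 49.6 and 49 CPM in the AngII libraries, or -1.03 ± 0.18 (edgeR adjusted p = 0.0204). AngII 2 lay between the other AngII libraries and the saline libraries. Syt3, a synaptotagmin, had a log2 fold change of -1.25 ± 0.25, Stum of -1.26 ± 0.22 and Lingo3 of -0.99 ± 0.21. Zim1, an imprinted zinc finger gene, fell by 1.25 ± 0.22, Sbk2, a kinase gene, by 1.15 ± 0.19, Gal3st2c, a sulfotransferase gene, by 1.01 ± 0.20, and Cyb5r2, a cytochrome b5 reductase gene, by 0.95 ± 0.23. Gsta1, a glutathione S-transferase gene, fell by 0.96 ± 0.20. The other decreases of this set are Snai3, Slc22a3, Coq8a, Ky, Cngb3, Ccl11, Irx2, Ncoa1, Hdac11 and Scn4a, as above. Jmjd8 was no longer called in 7 fits (-1.84 to -1.33), Pacsin2 in 4 (saline 1 or saline 4 or AngII 3 or AngII 4 left out, -1.29 to -0.95) and Syt3 in 6 (-1.44 to -1.08). Stum was no longer called in 3 fits (saline 4 or AngII 3 or AngII 4 left out, -1.40 to -1.15), Lingo3 in 7 (-1.22 to -0.86) and Zim1 in 5 (-1.39 to -1.18). Sbk2 was no longer called in 2 fits (AngII 2 or AngII 4 left out, -1.25 to -1.02) and Gal3st2c in 6 (-1.17 to -0.90). Cyb5r2 was no longer called in 8 fits (-1.07 to -0.82) and Gsta1 in 8 (-1.04 to -0.85).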

How the data were processed

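RNA of ventricular tissue was sequenced in 12 libraries, 4 per group, and the 8 saline and AngII libraries were used. The authors deposited raw counts per gene. Per the submitters' processing notes, the tools were HISAT, featureCounts 1.5.0-p3, and also DESeq 1.8.3, on build GRCm38. The sources used here do not give their settings, the strand mode, the handling of reads with several locations or the release of the annotation. Per the labels, a SMARTER mRNA kit was used. Of low counts, 33.9% to 36.6% per library were multiples of 4, for reasons not known here.

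The table listed 55421 genes. Coordinates, biotypes and exon overlaps came from GENCODE M21 (99.7% of IDs matched). With edgeR 4.0.16 (R 4.3.3), genes passing filterByExpr were TMM-scaled and given the quasi-likelihood test on 2 group means with no covariates. The Benjamini-Hochberg adjustment ran over 16754 genes. SE is that of the log2 fold change. Totals were 68874852 to 80624227 counts per library, and no 2 libraries of a group agreed within sampling noise. The test was run on simulated counts of this comparison for 16364 genes. It recovered 16 of the 65 genes altered 1.5-fold, 50 of the 67 altered 2-fold and 60 of the 68 altered 4-fold, and 5.97% of its calls were false. In this simulation a change of 1.5-fold was thus mostly missed. It altered 200 genes, and the data gave 358 higher and 208 lower calls. The adjustment depends on how many genes change, so these rates need not hold for the data.

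The comparison, the 66 gene lists and the rule for named genes were chosen with earlier results of these data known. The rule takes the 15 largest increases and 20 largest decreases of called protein-coding genes at a mean of 1 CPM or more with groups apart, collagens and natriuretic peptides left out, up to 4 called members of each functional list by p (or 2 uncalled where 0 were called), and a fixed set of cardiac genes. Other called members are listed by name, and 2 genes that the rule names are not reported here. Another 4 lists were chosen after the values were seen. Alternatives were DESeq2 1.42.0, limma-voom (limma 3.58.1), other scalings and filters, a fit of all 12 libraries or of 11, a replicate block, a fold threshold of 1.2 and each library left out. Library measures were compared by exact permutation in Python 3.11. Promoter windows were searched on both strands for 11 motifs, which were AAGGTCA (nuclear receptors), CATTCC (TEAD), TGANTCA (AP-1), ACANNTGT (with no factor named), TGATAAG (factors of the GATA family), CACGTG (the palindromic E-box), TGACGTCA (CREB), CCAAT (NF-Y), GGGTGTGG (KLF), the CArG box (SRF) and the MEF2 site. RefSeq held a window for 10860 of the tested protein-coding genes.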

Additional observations from a re-analysis of the deposited data

Results flagged for a closer look

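In 19 of 360 groups of 4 libraries examined for the reported named genes and summed markers, or 5.28%, 1 library stood apart by Dixon's criterion, and chance gives about 1 in 20. Among saline libraries, saline 4 was apart and lowest for Frzb (2.71 CPM), Fstl1 (54.5 CPM), Tyro3 (1.22 CPM) and Nfil3 (4.99 CPM) and highest for the cardiomyocyte marker sum (58000 CPM). Saline 2 was lowest for Mybpc2 (2.47 CPM) and highest for Pthlh (0.595 CPM) and Irf8 (5.14 CPM), and saline 3 was highest for Mef2c (32.5 CPM). Among AngII libraries, AngII 1 was highest for Slc25a42 (36.4 CPM) and Asb15 (37.3 CPM) and lowest for Hspb7 (741 CPM). AngII 2 was highest for Pthlh (2.30 CPM) and Pacsin2 (87.9 CPM). AngII 3 was highest for Edn3 (4.29 CPM), Meox1 (29.2 CPM) and the hepatocyte marker sum (108.6 CPM), and AngII 4 for Eln (66.3 CPM) and Mt2 (23.6 CPM).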

How the results depend on the processing

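The numbers of higher and lower genes moved most. They were 189 and 100 with no filter on low counts, 843 and 593 by DESeq2, 72 and 12 against a fold threshold of 1.2, and 273 and 115 with all 12 libraries in 1 fit. They were 441 and 242 when that fit left out replicate 3 of the Forsythoside I group, whose hepatocyte markers summed to 30600 CPM against 27.7 to 108.6 CPM in the other 11 libraries. Library totals as the only scaling gave 293 and 99. With 1 library left out they were 74 to 278 and 27 to 149. Genes whose AngII values lay below all saline values numbered 1329 to 1679 over such fits, and those above 1548 to 1736. Full separation is easier with fewer libraries, so these larger numbers do not measure a dependence on processing. Of the 358 higher and 208 lower genes, limma-voom kept 338 and 197, DESeq2 355 and 208, all 12 libraries 253 and 104, the 11 libraries 328 and 177, library totals 283 and 99, no filter 188 and 100, and the replicate block 194 and 74.

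A fit with the replicate number as a block gave 215 higher and 91 lower genes. Deviations from the group mean correlated at -0.019 to 0.036 between same-numbered saline and AngII libraries. The highest correlations with other numbers were 0.014 to 0.05. No pairing by number was seen, though a weak one could be missed.

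Signs turned only for genes that were not called. For nearly all called genes the groups did not overlap, which leaves little room for a turn. With 1 library left out, Myh6 ranged from -0.31 to 0.009 (above 0 without saline 4), Myh7 from -0.025 to 0.325 (below 0 without saline 2), Ppargc1a from -0.046 to 0.18 (below 0 without AngII 4) and Egr1 from -0.56 to 0.20 (above 0 in 4 fits). The cause of these shifts was not tested. Levels near 1 CPM (Wnt9b, Pthlh) rest on few counts.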

Other observations

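A further 4 gene groups were chosen after their values were seen and are given as descriptions. Glutathione S-transferases, the conjugating enzymes of detoxification, had 5 of 19 tested members lower and 0 higher, with a median log2 fold change of -0.359. Gstm7 stood at 28.4, 26.5, 30.5 and 33.6 CPM in the saline libraries and 17.2, 17.5, 19.6 and 19.6 CPM in the AngII libraries, or -0.69 ± 0.10 (edgeR adjusted p = 0.00997), and all AngII libraries were below all saline libraries. Gstm1, Gstm2, Gsta1 and Gstk1 also fell; the Gstm genes are closely similar copies, so reads may be split among them. Of 16 ASB ubiquitin ligase adaptors 3 fell, Asb15, Asb10 and Asb14. Gstm7 kept its call in all 8 fits that left out 1 library. Gstm1 was no longer called in 5 fits (-0.49 to -0.36), Gstm2 in 7 (-0.53 to -0.40) and Gstk1 in 8 (-0.39 to -0.29). Asb10 was no longer called in 8 fits (-0.39 to -0.31) and Asb14 in 8 (-0.41 to -0.32).

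A pair of ribosomal paralogues moved in opposite directions. Rpl3, the general form, stood at 93.4, 84.4, 94.7 and 82.4 CPM in the saline libraries and 119, 126, 129 and 122 CPM in the AngII libraries, a log2 fold change of 0.48 ± 0.07 (edgeR adjusted p = 0.0115). Rpl3l, the form of heart and skeletal muscle, stood at 191, 194, 182 and 214 CPM in the saline libraries and 149.8, 149, 160.2 and 163 CPM in the AngII libraries, or -0.33 ± 0.07 (edgeR adjusted p = 0.0419). Each gene's groups were apart. Of 52 large ribosomal subunit genes the other call was Rpl26 (0.39 ± 0.08), and 50 of 52 lay above 0 with a median of 0.187. Rpl3 kept its call in all 8 fits that left out 1 library. Rpl3l was no longer called in 8 fits (-0.36 to -0.28) and Rpl26 in 6 (0.35 to 0.45).

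Actin regulators of non-muscle cells had 17 of 41 tested members higher and 1 lower, with a median of 0.419. Arpc1b, a subunit of the Arp2/3 complex, stood at 34.8, 38.8, 41 and 31.2 CPM in the saline libraries and 53.6, 59.5, 60.7 and 60 CPM in the AngII libraries, or 0.68 ± 0.10 (edgeR adjusted p = 0.0097), and its groups were apart. Others that rose included Capg (0.63 ± 0.10), Cotl1 (0.72 ± 0.12), Coro1a (0.71 ± 0.12) and Tpm4 (0.59 ± 0.10), while Actr3b fell (-0.41 ± 0.08). Coro1a is a gene of blood cells, and summed macrophage markers were 386 to 512 CPM in saline and 616 to 716 CPM in AngII; their part was not tested. Arpc1b kept its call in all 8 fits that left out 1 library. Capg was no longer called in 1 fit (AngII 4 left out, 0.57 to 0.66), Cotl1 in 2 (AngII 3 or AngII 4 left out, 0.62 to 0.77) and Coro1a in 4 (saline 1 or AngII 2 or AngII 3 or AngII 4 left out, 0.62 to 0.77). Tpm4 was no longer called in 3 fits (AngII 2 or AngII 3 or AngII 4 left out, 0.51 to 0.66) and Actr3b in 5 (-0.45 to -0.38).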
